A study of Homo sapiens with 16 samples.

Results

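Nucleotide synthesis is described here through 10 genes, measured in the human B-cell precursor acute lymphoblastic leukaemia line Nalm6. They are PRPS1, PRPS2, PPAT, PAICS, GART, ATIC and IMPDH2 of purine synthesis and CAD, CTPS1 and CMPK2 of pyrimidine synthesis. All 10 were measured, among 18132 genes in all, by 28 probe sets annotated to exactly 1 of them, and the probe set with the highest mean over the 16 arrays stood for its gene. That mean was the value used to choose probe sets. PRPS2 and CMPK2 were singled out because earlier results of these arrays showed large differences, so their values are a description and carry no test. The other 8 genes were tested.

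The 16 arrays formed 4 groups of 4, and all were Nalm6 cells in RPMI1640 medium with serum and glutamine. Control cells and cells labelled as carrying active, overexpressed CASP1, the caspase of the inflammasome, each stayed untreated or received the synthetic glucocorticoid prednisolone for 24 hours. The labels spell the treatment "predisone" for the samples and as prednisolone in the protocol, and neither dose, construct nor clonality of the lines is given in the sources used here. The study's title asks whether CASP1 causes resistance to glucocorticoids by cleaving their receptor.

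Values are deposited log2 signals, so a difference of 1 is a 2-fold change, and group values are mean ± SD of 4 arrays. Array medians lay between 4.85 and 4.93. CASP1 signal went against the label: on untreated arrays it was 7.75 ± 0.15 for control cells but 5.69 ± 0.25 for those labelled CASP1, so the second line is named below only by its label. The receptor target TSC22D3 rose in both lines, by 4.70 and 5.79. Of the B-cell precursor markers 9 were measured, with means over the arrays of 6.69 to 12.75, while 5 T-cell, 4 myeloid, 2 erythroid and 5 epithelial or fibroblast markers had means of at most 5.07. The arrays numbered 1 in each group stood apart from the others. Deviations from the group means, over all genes, correlated between these 4 arrays with r of 0.191 to 0.507, against -0.116 to 0.26 between arrays sharing any other number. Results that rest on these arrays are therefore given with and without them. In bulk RNA, a change in some of the cells and a smaller change in all of them cannot be told apart.

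Purines are built stepwise on phosphoribosyl pyrophosphate, the activated ribose made by the synthetases PRPS1 and PRPS2. PPAT commits this ribose to the purine route, and GART, PAICS and ATIC, which each carry several of the following activities, lead to inosine monophosphate, from which IMPDH2 opens the guanine branch. Pyrimidines start with CAD, a multifunctional enzyme of the first steps, and CTPS1 makes CTP from UTP. CMPK2 is a mitochondrial kinase of UMP and CMP that is known as an interferon-induced gene. Proliferating lymphoid cells depend on these routes, several of the genes are known targets of the transcription factor MYC, and thiopurines and antifolates given in childhood leukaemia act on them.

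Promoter windows, from 250 bases before to 50 bases after a start site, were available for 9 of the 10 members, with 16 windows in all (RefSeq, GRCh38.p14). Both strands were searched for the MYC-type E-box CACGTG, the interferon response core (TTTC, any 2 bases, TTTC) and the full glucocorticoid element (AGAACA, any 3 bases, TGTTCT). The windows of PPAT and ATIC are shown because these genes fell with prednisolone and hold an E-box, in capitals. PPAT (chr4:56435566-56435865, minus strand) holds it 182 bases before the start, and ATIC (chr2:215311809-215312108, plus strand) holds one 46 bases before and one 29 bases after.
PPAT: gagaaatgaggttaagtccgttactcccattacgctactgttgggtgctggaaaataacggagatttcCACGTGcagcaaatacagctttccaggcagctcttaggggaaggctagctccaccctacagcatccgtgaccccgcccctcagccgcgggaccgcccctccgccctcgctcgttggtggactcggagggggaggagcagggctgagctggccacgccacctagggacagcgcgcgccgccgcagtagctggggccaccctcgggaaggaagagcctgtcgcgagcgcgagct
ATIC: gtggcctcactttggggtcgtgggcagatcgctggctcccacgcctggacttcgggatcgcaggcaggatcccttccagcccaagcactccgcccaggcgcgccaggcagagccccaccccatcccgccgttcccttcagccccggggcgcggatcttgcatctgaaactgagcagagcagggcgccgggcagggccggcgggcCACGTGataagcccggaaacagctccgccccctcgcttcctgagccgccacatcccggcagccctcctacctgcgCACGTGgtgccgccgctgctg
PPAT and PAICS are neighbours on opposite strands. The start of PPAT and one of the 3 PAICS starts in the table lie 137 bases apart, their windows overlap by 236 bases, and the E-box of PPAT is the same site as the only one in the PAICS windows. The E-box was thus in 3 of the 16 windows, at 2 distinct promoters, and in 7.26% of all 35116 windows of this length. The windows of PRPS1, GART, CAD and CTPS1, which also fell with prednisolone in control cells, held no E-box. A match describes letters and is not a binding site shown by these data.

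The windows of PRPS2 (chrX:12791162-12791461, plus strand) and of one CMPK2 start (chr2:6865770-6866069, minus strand) are shown because these genes were singled out for their difference between the lines.
PRPS2: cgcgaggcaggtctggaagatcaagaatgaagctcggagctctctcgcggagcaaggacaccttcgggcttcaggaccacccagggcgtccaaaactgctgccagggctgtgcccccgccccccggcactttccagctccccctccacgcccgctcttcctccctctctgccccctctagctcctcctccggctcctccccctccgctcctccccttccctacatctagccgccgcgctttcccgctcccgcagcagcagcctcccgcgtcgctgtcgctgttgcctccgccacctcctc
CMPK2: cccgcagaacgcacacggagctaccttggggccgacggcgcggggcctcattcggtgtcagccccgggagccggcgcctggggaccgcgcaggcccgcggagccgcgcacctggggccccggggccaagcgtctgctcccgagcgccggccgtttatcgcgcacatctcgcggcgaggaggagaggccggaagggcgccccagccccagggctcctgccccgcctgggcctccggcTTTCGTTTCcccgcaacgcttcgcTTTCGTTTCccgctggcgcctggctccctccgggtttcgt
PRPS2 held none of the searched motifs. No member window held the interferon response core, which 3.57% of all windows hold, or the full glucocorticoid element, which 1 of 35116 windows holds. The capitals in CMPK2 mark a shorter spacing, TTTCNTTTC, which was added after the sequence was seen and occurs in 3.12% of all windows. It stands 14 bases before and 10 bases after that start, and not in the windows of the 2 other CMPK2 starts.

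With prednisolone, most of the tested enzymes from activated ribose to purines and pyrimidines fell in control cells. Of the 8 tested members 7 fell and 0 rose, at an adjusted p under 0.05 from limma over all 18132 genes, a rule that called 14.2% of all genes in this comparison, 8.43% as lower and 5.73% as higher. The falls ranged from 1.41-fold to 2.1-fold, and IMPDH2 was the member that did not pass. The median difference of the 8 was -0.76, beside -0.02 over all genes. In 6 of the 8 the groups did not overlap, with the treated arrays lower, a pattern seen in 11.8% of all genes.

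PRPS1, the ribose synthetase tested here, had the highest adjusted p of the 7. Its signals were 10.10, 9.42, 9.60 and 9.61 on the untreated arrays and 9.62, 8.95, 9.13 and 9.06 with prednisolone, in the order of the replicate numbers. The array numbered 1 was the highest of both groups, and the groups overlapped. PRPS1 fell by 0.49 (SE 0.159, adjusted p = 0.045 from limma). That call ended without untreated array 1 (-0.35), 3 (-0.52) or 4 (-0.52) or treated array 2 (-0.41), 3 (-0.47) or 4 (-0.45), with both other scalings (-0.45 and -0.48), with its probe sets averaged (-0.50) and with only these groups in the fit. The call was kept, at -0.49, in fits of all arrays that allowed for the replicate numbers. With a term for each number the adjusted p was 0.00025 from limma, and with a term for number 1 only it was 0.00015. Without the arrays numbered 1 together the difference was -0.50 (SE 0.0761, adjusted p = 0.00028).

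PPAT, the committing amidotransferase, separated fully. Its untreated signals of 9.00, 9.26, 9.17 and 9.32 stood above the treated ones of 8.29, 8.43, 8.41 and 8.25. It fell by 0.84 (SE 0.118, 1.79-fold, adjusted p = 5.3e-05 from limma). PAICS, which shares the promoter region with PPAT, had the largest fall among the members. PAICS signals were 10.39, 10.75, 10.61 and 10.69 without and 9.53, 9.61, 9.61 and 9.42 with prednisolone. It fell by 1.07 (SE 0.117, 2.1-fold, adjusted p = 3.5e-06), and every treated array was below every untreated one.

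GART and ATIC, the trifunctional and bifunctional enzymes of the later steps, were also lower on every treated array. GART went from 8.83, 8.73, 8.67 and 8.66 to 8.04, 7.94, 7.79 and 7.82. It fell by 0.83 (SE 0.113, 1.78-fold, adjusted p = 4.2e-05 from limma). ATIC went from 10.02, 9.77, 9.76 and 9.90 to 9.35, 9.15, 9.18 and 9.21. The fall of ATIC was the smaller of the pair in size, and it fell by 0.64 (SE 0.0994, adjusted p = 0.00016). IMPDH2, the guanine branch enzyme, stayed within the spread of its arrays. Its signals were 12.04, 11.87, 11.91 and 11.99 untreated and 11.94, 11.83, 11.81 and 11.85 treated, a difference of -0.10 with a 95% interval of -0.26 to 0.07 (adjusted p = 0.55). All 5 other IMPDH2 probe sets gave differences between -0.10 and -0.05.

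Both pyrimidine enzymes fell too. CAD signals were 8.56, 8.23, 8.28 and 8.26 untreated and 7.66, 7.33, 7.24 and 7.25 with prednisolone, with array 1 the highest of each group. CAD fell by 0.96 (SE 0.138, 1.95-fold, adjusted p = 7.1e-05 from limma). CTPS1 signals were 10.39, 10.17, 10.24 and 10.25 untreated and 9.96, 9.54, 9.39 and 9.43 treated. It fell by 0.68 (SE 0.183, adjusted p = 0.015), and this call ended without treated array 3 (-0.62, adjusted p = 0.056) or 4 (-0.63, adjusted p = 0.051). The other probe sets of the tested members, 15 in all, gave differences from -1.27 to -0.05, all below 0.

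**Figure D1:**
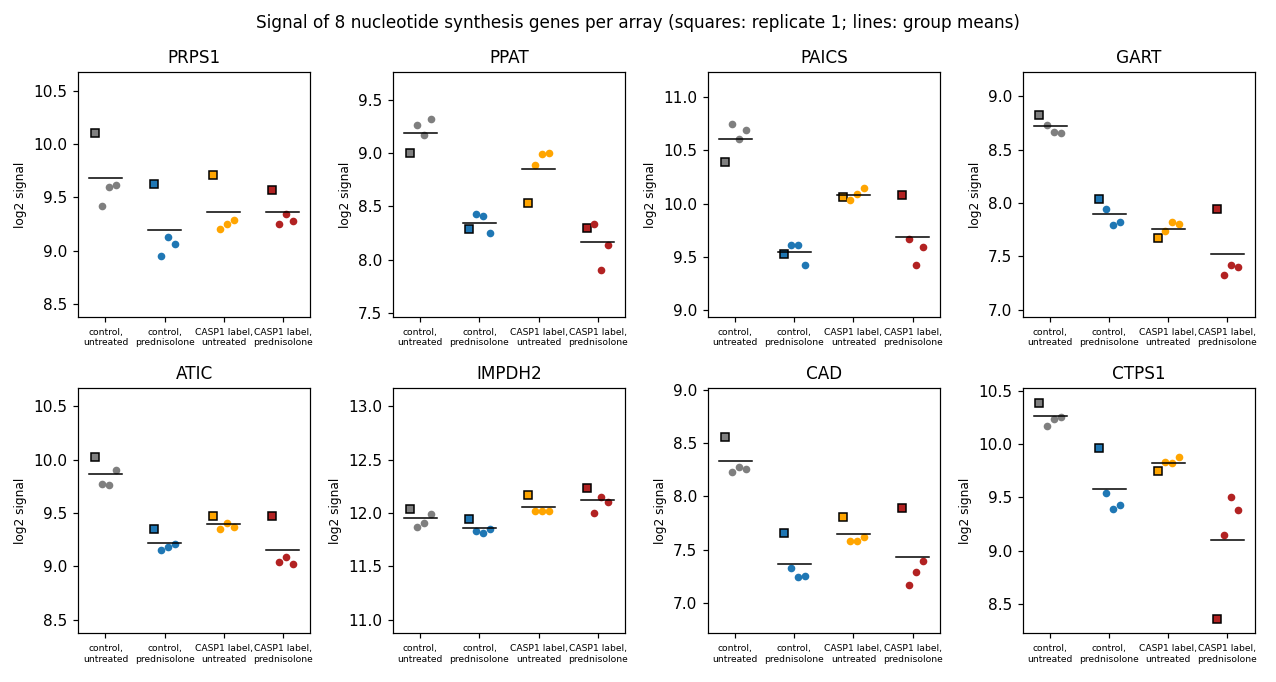
Log2 signal (vertical axes, each spanning 2.3 units) of the 8 tested genes on each of the 16 arrays, by group, with squares for the arrays numbered 1 and lines for group means. In control cells the treated arrays lie below the untreated ones for 6 genes, while PRPS1 and IMPDH2 overlap, and in cells labelled CASP1 only PPAT and CTPS1 separate.

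The same treatment gave fewer calls in cells labelled CASP1. There 2 of the 8 tested members fell and 0 rose, where the rule called 6.34% of all genes, 3.35% as lower and 2.99% as higher, and the median of the 8 was -0.24 beside 0.02 over all genes. The members that fell were PPAT and CTPS1, which also were the only ones of the 8 whose groups did not overlap, with 6.56% of all genes not overlapping in this direction. PPAT signals were 8.53, 8.89, 8.99 and 9.00 untreated and 8.30, 8.33, 7.90 and 8.14 treated. PPAT fell by 0.69 (SE 0.118, adjusted p = 0.0012 from limma), a call kept under all 17 alternatives run. CTPS1 signals were 9.75, 9.83, 9.82 and 9.88 untreated and 8.36, 9.15, 9.50 and 9.38 treated, with treated array 1 far below the others. CTPS1 fell by 0.72 (SE 0.183, adjusted p = 0.022), and without that array by 0.48 (adjusted p = 0.022). Its call ended without untreated array 2 (-0.72), 3 (-0.72) or 4 (-0.70) and with only this line in the fit (adjusted p = 0.097).

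For the steps between, treated array 1 lay above its group on the brightest probe sets. PAICS signals were 10.06, 10.03, 10.09 and 10.15 untreated and 10.08, 9.67, 9.42 and 9.59 treated, so array 1 alone gave the overlap. The difference was -0.39 (95% interval -0.64 to -0.15, adjusted p = 0.056 from limma). It was -0.52 (adjusted p = 0.0018) without treated array 1 and -0.64 (adjusted p = 0.00044) with both of its probe sets averaged. The other PAICS probe set gave -0.89 without overlap. Its signals were 9.82, 9.61, 9.61 and 9.59 untreated and 9.16, 8.69, 8.68 and 8.56 treated. GART on its brightest probe set had treated signals of 7.94, 7.33, 7.42 and 7.40 against 7.67, 7.74, 7.82 and 7.80 untreated. Array 1 alone gave the overlap here too. Its difference of -0.23 (adjusted p = 0.29) became -0.37 (adjusted p = 0.0088) without that array. Its 4 other probe sets gave -0.64 to -0.27, and the average of all 5 was -0.46 (adjusted p = 0.0074). On the GART probe set at -0.59 treated array 1 was the lowest of its group, at 6.65. On that at -0.27 it was the highest, at 7.31.

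ATIC and CAD showed the same array. ATIC had treated signals of 9.47, 9.04, 9.09 and 9.02 against 9.47, 9.35, 9.41 and 9.37, a difference of -0.25 (adjusted p = 0.18 from limma) and of -0.35 (adjusted p = 0.014) without treated array 1. CAD had treated signals of 7.89, 7.17, 7.29 and 7.39 against 7.81, 7.58, 7.58 and 7.62, a difference of -0.21 (95% interval -0.51 to 0.08, adjusted p = 0.48). Without all 4 arrays numbered 1 the count was 6 members lower of 8, with CAD at -0.31 (adjusted p = 0.011), where that fit called 11.9% of all genes. PRPS1 and IMPDH2 were the members that did not pass in that fit. PRPS1 was at -0.01 (95% interval -0.34 to 0.33) on all arrays, with signals of 9.71, 9.20, 9.25 and 9.29 untreated and 9.57, 9.25, 9.34 and 9.28 treated. IMPDH2 was at 0.06 (95% interval -0.10 to 0.23), with treated signals of 12.23, 12.00, 12.15 and 12.10 against 12.17, 12.02, 12.02 and 12.02.

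**Figure D2:**
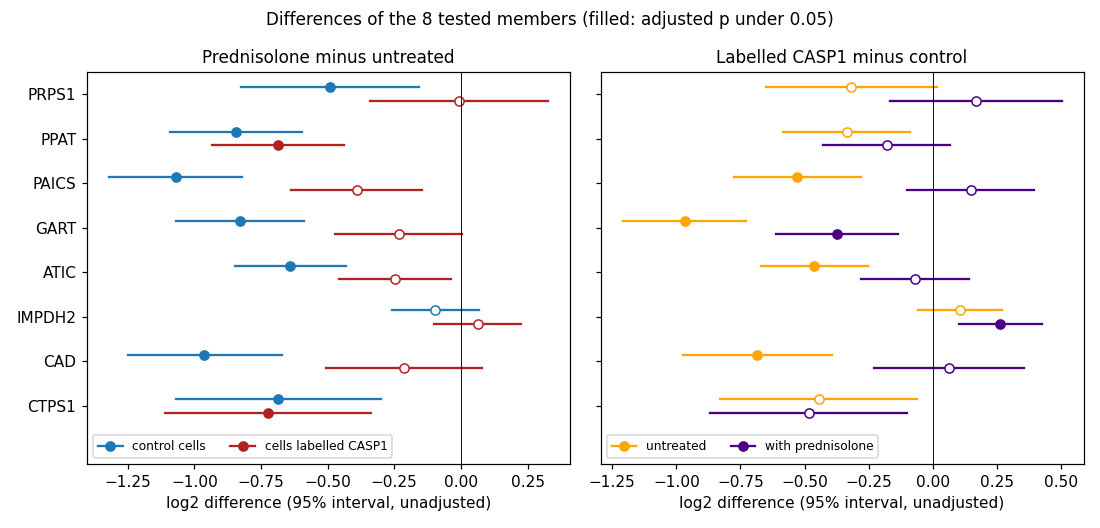
Log2 differences of the 8 tested genes (points) with unadjusted 95% intervals (lines), for prednisolone minus untreated in each line (left) and for cells labelled CASP1 minus control cells in each treatment (right); filled points passed an adjusted p under 0.05. On the left 7 genes are filled for control cells and 2 for those labelled CASP1, and on the right 4 are filled untreated and 2 with prednisolone.

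The interaction, in which the control response is taken from that of cells labelled CASP1, tested whether these responses differed. It was above 0 for 7 of the 8 tested members, with a median of 0.44 beside 0.03 over all genes. That meant a less negative difference in cells labelled CASP1, except for IMPDH2, at 0.06 there and -0.10 in control cells. None of the 8 passed in limma over all genes, where the rule called 0.888% of genes, and 5 had an unadjusted p under 0.05. CAD had the largest value at 0.75 (SE 0.196, 95% interval 0.34 to 1.16, adjusted p = 0.091). PAICS followed at 0.68 (adjusted p = 0.069), GART at 0.59 (adjusted p = 0.11) and PRPS1 at 0.49 (adjusted p = 0.47). The other PAICS probe set gave 0.38 and the other GART probe sets 0.53, 0.23, 0.15 and -0.04, and with probe sets averaged GART was at 0.30 (adjusted p = 0.46). For PPAT it was 0.16 (95% interval -0.19 to 0.51) and for CTPS1 -0.04 (95% interval -0.58 to 0.51).

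Without the 4 arrays numbered 1 these became 4 calls of 8, where that fit called 4.01% of all genes. They were CAD at 0.67 (adjusted p = 0.0021 from limma), PAICS at 0.61 (adjusted p = 0.011), PRPS1 at 0.54 (adjusted p = 0.013) and GART at 0.44 (adjusted p = 0.022). A batch term for these arrays also gave 4. CAD also passed without treated control array 1 (0.85, adjusted p = 0.038). PAICS also passed without untreated control array 1 (0.75), treated CASP1-labelled array 1 (0.55) or treated CASP1-labelled array 3 (0.77).

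Between the untreated lines GART, CAD, PAICS and ATIC were lower in cells labelled CASP1. Of the 8 tested, 4 were called lower and 0 higher, where the rule called 14.1% of all genes, 8.2% as lower and 5.87% as higher. The median of the 8 was -0.45 beside 0.01 over all genes. GART was at -0.97 (SE 0.113, 1.96-fold, adjusted p = 1.5e-05 from limma), with 7.67 to 7.82 in cells labelled CASP1 and 8.66 to 8.83 in control cells. Its 4 other probe sets gave -0.95, -0.50, -0.14 and -0.71, and the average of all 5 was -0.66 (adjusted p = 0.00021). CAD was at -0.69 (SE 0.138, adjusted p = 0.0024), PAICS at -0.53 (SE 0.117, adjusted p = 0.0049) and ATIC at -0.46 (SE 0.0994, adjusted p = 0.0039). These 4 calls were kept under all 17 alternatives, and none of the 4 had overlapping groups, which in this direction held for 11.8% of all genes.

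The other tested members did not pass in untreated cells. PPAT was at -0.34 (95% interval -0.58 to -0.09, adjusted p = 0.068 from limma) and CTPS1 at -0.45 (95% interval -0.83 to -0.06, adjusted p = 0.13). Both had every array of cells labelled CASP1 below every control array. PRPS1 was at -0.32 (95% interval -0.65 to 0.02) and IMPDH2 at 0.11 (95% interval -0.06 to 0.27). Without the 4 arrays numbered 1, PRPS1 was at -0.29 (adjusted p = 0.013) and CTPS1 at -0.38 (adjusted p = 0.0063). PPAT also passed without untreated control array 1 (-0.40, adjusted p = 0.041), with both probe sets averaged (-0.40, adjusted p = 0.0088) and with the batch term (adjusted p = 0.037). CTPS1 also passed with only the untreated groups in the fit (adjusted p = 0.0031).

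Between the treated lines 2 members passed, in opposite directions. The median of the 8 was -0.002 beside 0.05 over all genes, 1 member was called lower and 1 higher, and the rule called 16.4% of all genes, 8.52% as lower and 7.88% as higher. IMPDH2 was the only one of the 8 whose groups did not overlap, with 10.1% of all genes not overlapping in that direction. GART was at -0.37 (SE 0.113, adjusted p = 0.029 from limma) and IMPDH2 at 0.26 (SE 0.0777, adjusted p = 0.025). The GART call ended without treated control array 1 (-0.33) or 2 (-0.36) or CASP1-labelled array 2 (-0.31), 3 (-0.34) or 4 (-0.33), under both other scalings (-0.34 each) and with only the treated groups. The IMPDH2 call ended without control array 2 (0.26), 3 (0.25) or 4 (0.26) or CASP1-labelled array 1 (0.23) or 3 (0.25) and with only the treated groups. The remaining 6 had intervals from -0.87 to 0.50 between them, and CTPS1, at -0.48, passed only without CASP1-labelled array 3 (-0.62, adjusted p = 0.031). The 4 other GART probe sets gave -0.42, -0.27, 0.01 and -0.75. Without the 4 arrays numbered 1, 3 members passed, where that fit called 22.4% of all genes. They were GART at -0.47 (adjusted p = 0.00024 from limma), IMPDH2 at 0.26 (adjusted p = 0.013) and PRPS1 at 0.24 (adjusted p = 0.036). CTPS1 was at -0.11 (adjusted p = 0.43) in that fit.

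PRPS2, the paralogue of PRPS1, was high in cells labelled CASP1 and dim in control cells. Its signals were 3.82, 3.75, 3.33 and 3.94 in untreated control cells and 3.68, 3.73, 3.77 and 3.92 with prednisolone. In cells labelled CASP1 they were 7.04, 6.91, 7.07 and 7.05 untreated and 6.69, 6.50, 6.92 and 6.96 with prednisolone. All 8 arrays labelled CASP1 were above all 8 control arrays, while treated and untreated arrays of a line overlapped. Higher without overlap were 9.89% of all genes between the untreated lines and 10.1% between the treated ones. The means from the highest were 7.02 and 6.77 in cells labelled CASP1 and 3.78 and 3.71 in control cells, and the groups of each line overlapped.

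The line difference of PRPS2 on the log2 scale was 3.31 (SE 0.124) untreated and 2.99 (SE 0.124) with prednisolone. No fold is given, since the control signal was not shown to be above background: the T-cell and myeloid markers had median signals of 3.39 and 3.59. In untreated control cells 28.3% of genes had a lower mean signal than PRPS2, and in untreated cells labelled CASP1 65.6% did, so the control signal lay in the dim part of the array. The second PRPS2 probe set gave the same order at a smaller size, with 3.31 ± 0.15 against 5.37 ± 0.24 untreated and 3.53 ± 0.19 against 5.15 ± 0.31 treated. With the mean of both probe sets the differences were 2.69 and 2.31.

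Prednisolone differences of PRPS2 were small beside this. They were 0.07 (95% interval -0.19 to 0.33) in control cells and -0.25 (95% interval -0.51 to 0.01) in cells labelled CASP1. PRPS1 thus had a line difference of -0.32 untreated where PRPS2 had 3.31. The coding neighbours of PRPS2 in the RefSeq order, FRMPD4 and the endosomal RNA receptor TLR7, had untreated line differences of 0.08 (adjusted p = 0.64 from limma) and -0.01 (adjusted p = 0.97). With prednisolone they were 0.25 (adjusted p = 0.032), a call for FRMPD4, and 0.02 (adjusted p = 0.92). A coding neighbour of PRPS1 is TSC22D3, which rose by 4.70 in control cells while PRPS1 fell by 0.49. These neighbours were picked by position, after their values could be seen.

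CMPK2 went the other way between the lines. Its signals were 6.17, 5.62, 5.30 and 5.10 in untreated control cells and 7.44, 7.07, 6.51 and 6.68 with prednisolone. In cells labelled CASP1 they were 3.80, 3.16, 3.08 and 2.82 untreated and 3.70, 3.54, 3.67 and 4.08 with prednisolone. All control arrays were above all arrays labelled CASP1, the treated control arrays were above the untreated ones, and the treatment groups of cells labelled CASP1 overlapped. Among all genes 9.56% were lower without overlap between the treated lines, and 9.07% were higher without overlap with prednisolone in control cells. The means from the highest were 6.93, 5.55, 3.75 and 3.22. In the last pair only untreated array 1, at 3.80, reached into the range of the treated arrays.

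The CMPK2 difference with prednisolone was 1.38 (SE 0.239, 2.6-fold) in control cells, opposite in direction to the 7 members that fell. In cells labelled CASP1 it was 0.53 (SE 0.239, 95% interval 0.03 to 1.03), and 0.74 (SE 0.173) without the arrays numbered 1. The line difference on the log2 scale was -2.33 untreated and -3.18 with prednisolone, with the signal of cells labelled CASP1 not shown to be above background either. In untreated cells labelled CASP1, 18.7% of genes had a lower mean signal than CMPK2. All these values rest on 1 of its 3 probe sets. The second brightest stayed between 4.41 ± 0.13 and 4.49 ± 0.10 in the 4 groups, and the third between 3.39 ± 0.041 and 3.85 ± 0.43. With the mean of the 3 the prednisolone difference was 0.54 in control cells and the line difference -0.83 untreated.

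**Figure D3:**
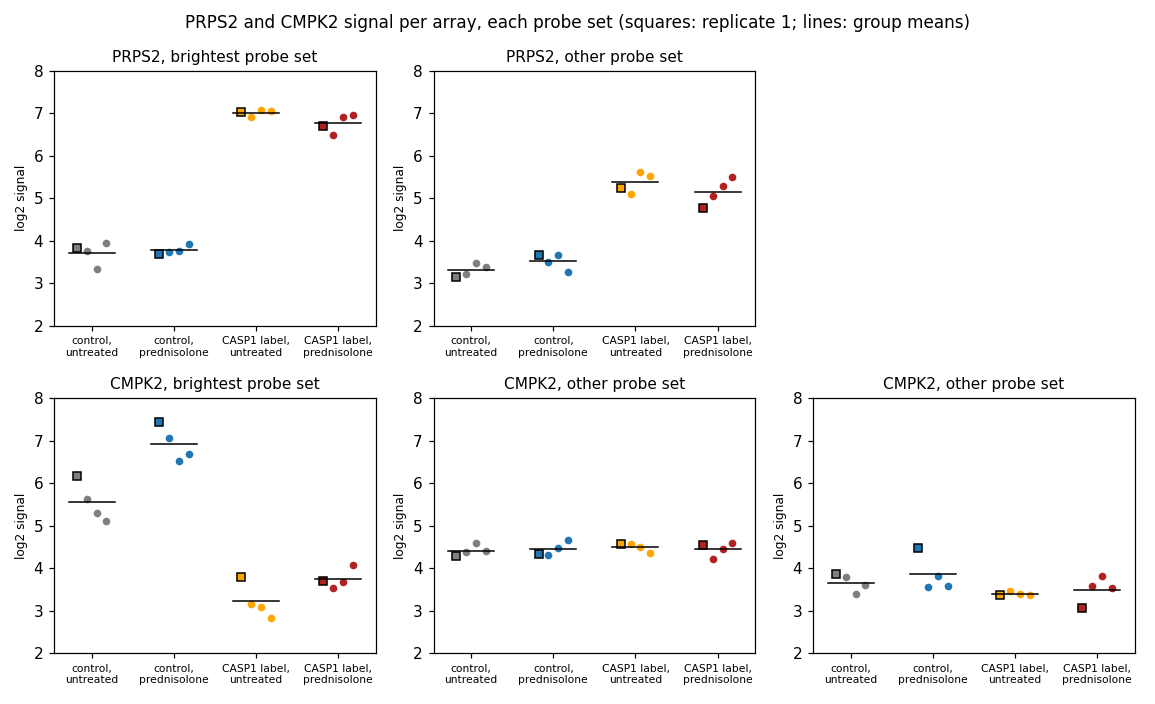
Log2 signal (vertical axes from 2 to 8) of both PRPS2 probe sets and all 3 CMPK2 probe sets on each of the 16 arrays, by group, with squares for the arrays numbered 1 and lines for group means. Both PRPS2 probe sets are higher on the arrays labelled CASP1, whereas the pattern of the brightest CMPK2 probe set, with means from 6.93 down to 3.22, is not seen in the others.

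CMPK2 lies beside RSAD2, which encodes the antiviral protein viperin, and both are known interferon-induced genes. RSAD2 was between 2.56 ± 0.14 and 2.81 ± 0.28 in the 4 groups, with no difference passing the test (adjusted p = 0.23 to 0.97 over the 4 comparisons in limma). These means lay below the T-cell marker median of 3.39 and were not shown to be above background, so a change could have gone unseen. Of 15 measured interferon-stimulated genes, 2 were called higher and 3 lower with prednisolone in control cells, and 2 higher and 2 lower in untreated cells labelled CASP1 against control cells. That was 33.3% and 26.7% of the list, beside 14.2% and 14.1% of all genes. MX1, an antiviral GTPase, rose with prednisolone by 1.65 in the control line and by 1.78 in the other. IFIT1, which binds viral RNA, fell by 0.84 and by 0.57. The interferon list thus held members in both directions in these comparisons, with a median of -0.04 both for prednisolone in control cells and between the untreated lines.

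The genes closest to each in pattern were taken as those with the smallest root mean square difference of centred log2 values over the 16 arrays. For PRPS2, whose own root mean square deviation was 1.59, they were CD59, an inhibitor of complement (0.354), KLF10, a zinc finger factor (0.591), B4GALT6 (0.629), ZNF256 (0.639) and KIAA1671 (0.652). CD59 had line differences of 2.86 untreated and 2.55 treated. For CMPK2, with a deviation of 1.51, they were SCML4 (0.576), NRXN3 (0.595), LCN6 (0.712), CAMK2D (0.759) and SPIRE1 (0.8). SCML4 rose by 2.42 with prednisolone in control cells and had an untreated line difference of -2.38.

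The rest of nucleotide metabolism was described by 43 measured genes in 5 lists. With prednisolone in control cells 14 fell, 2 rose and 27 did not pass, or 37.2% called beside 14.2% of all genes, and the median was -0.17. Deoxynucleotide supply had 6 of 9 lower and 0 higher. RRM2, the regulated subunit of ribonucleotide reductase, fell by 1.25 (2.39-fold, adjusted p = 4e-07 from limma). DUT, which removes dUTP, fell by 0.93 and TYMS, thymidylate synthase, by 0.82. The 6 also held SAMHD1, which breaks deoxynucleotides down and fell by 0.67 (adjusted p = 0.011), so not all were enzymes of supply.

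Salvage had 5 of 12 lower and 1 higher. TK1, the cytosolic thymidine kinase, fell by 1.12 (adjusted p = 2.1e-05 from limma) and ADK, adenosine kinase, by 0.91. PNP, purine nucleoside phosphorylase, fell by 0.62 and HPRT1, which returns hypoxanthine and guanine to the pool and activates thiopurines, by 0.61. Of 7 other purine synthesis genes 3 fell. They were ADSS1, an adenylosuccinate synthase, by 0.51, GMPS, GMP synthetase, by 0.45 and IMPDH1, the other IMP dehydrogenase, by 0.44. PRPSAP1, a regulatory partner of the PRPS enzymes, rose by 0.32 (adjusted p = 0.011). None of 4 other pyrimidine genes and none of 11 breakdown genes passed.

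In cells labelled CASP1, 7 of the 43 fell and 2 rose with prednisolone, or 20.9% beside 6.34% of all genes. RRM2 fell by 0.63, DUT by 0.53, TK1 by 0.60 and PNP by 0.48. UCK1, a uridine-cytidine kinase, rose by 0.69 (adjusted p = 0.0019 from limma) and its relative UCK2 fell by 0.44. In the interaction 0 of the 43 passed in limma, and 13 had an unadjusted p under 0.05.

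**Figure D4:**
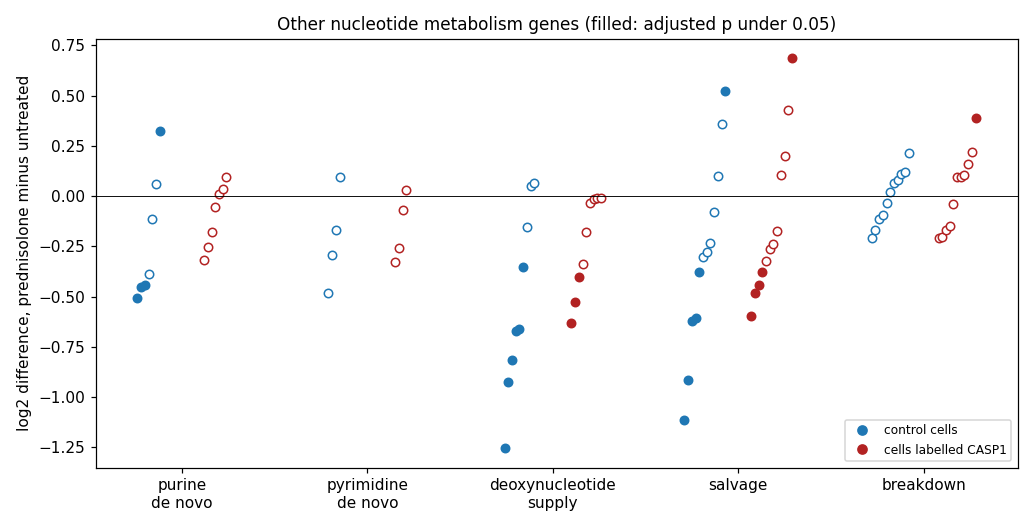
Log2 difference of prednisolone minus untreated (vertical axis) for 43 other genes of nucleotide metabolism in 5 lists, for the control line and for cells labelled CASP1; each point is a gene and filled points passed an adjusted p under 0.05. The filled points lie mostly below 0, with 14 of 16 below in control cells and 7 of 9 in cells labelled CASP1.

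Between the untreated lines the wider lists held calls in both directions, 7 higher and 6 lower of 43, or 30.2% beside 14.1% of all genes. PFAS, the purine enzyme that acts between GART steps, was lower in cells labelled CASP1, at -1.12 (2.18-fold, adjusted p = 0.00024 from limma). UMPS, which completes UMP synthesis after CAD, was at -0.89 (adjusted p = 0.00069). ADSS1 was higher by 0.51, CTPS2, the second CTP synthetase, by 0.40 and PRPSAP1 by 0.38. Under prednisolone 10 were higher and 4 lower, or 32.6% beside 16.4% of all genes. PFAS was again lower at -0.99 and UMPS at -0.86, RRM2 was higher by 0.89 and ADSS1 again, by 0.97.

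MYC, the transcription factor named above, was measured beside these genes. It went from 12.25 ± 0.049 to 11.13 ± 0.13 with prednisolone in control cells and from 11.85 ± 0.084 to 10.89 ± 0.12 in cells labelled CASP1. MYC fell by 1.12 and by 0.96 (adjusted p = 5.1e-08 and 7e-07 from limma). Its interaction was 0.16 (95% interval -0.10 to 0.41). Between the lines, cells labelled CASP1 minus control cells, MYC was at -0.40 untreated (adjusted p = 0.0039 from limma). With prednisolone this difference was -0.24 (adjusted p = 0.065). The part of MYC in the changes of the members was not tested.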

How the data were processed

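Total RNA of 16 samples of the Nalm6 line was measured on Affymetrix PrimeView arrays. The deposited log2 signals of 49395 probe sets come from RMA run by the authors, as the submitters' processing notes state; its software and version are not given in these sources. Since RMA sets all arrays to 1 scale, RNA content per cell was not measured. The table had no unassigned column (0). Probe sets with 1 annotated gene were used, the brightest per gene, giving 18132 genes. Each was fitted with limma 3.58.1 (R 4.3.3) as 4 group means over all 16 arrays (12 residual degrees of freedom), with Benjamini-Hochberg adjustment over all genes and calls at an adjusted p under 0.05. The fit was tested on simulated data, with differences set in treated control arrays. It recovered 56% of 100 differences of 0.5 and 96% of 100 of 1, with 7 false calls. Differences of 0.5 or less can therefore be missed. The simulated noise was independent between arrays and did not hold the shared deviation of the arrays numbered 1. Separate cultures are not stated in the labels, and p-values then reflect only the spread of these samples, which may be technical; the number of arrays limits the precision.

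The members and lists were chosen with earlier results of these data known. Named genes were the members, up to 4 called genes per other list and comparison with the largest absolute difference, the 5 nearest to PRPS2 and to CMPK2 (placeholder symbols passed over), and CASP1, NR3C1, MYC, TSC22D3 and RSAD2. NR3C1, the receptor gene, rose by 1.24 in the control line and by 0.85 in the other. Of 47 listed wider genes 43 were measured. Alternatives were other scalings, a filter on dim genes, the mean of probe sets, fewer groups, a replicate block, a batch term, other moderation and left-out arrays. Deviations of same-numbered arrays correlated with a median r of 0.388 for number 1 and of 0.171, 0.124 and 0.084 for numbers 2, 3 and 4. Arrays of different numbers in different groups had a median of -0.046. The labels do not state pairs, so the numbers were not taken as pairs, and the replicate block was run as an alternative.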

Additional observations from a re-analysis of the deposited data

Results flagged for a closer look

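For the 10 members, the highest or lowest of the 4 arrays was set against the other 3 in each of the 4 groups, which made 40 checks, and 5 of them had an array far from the others by Dixon's criterion; about 2 would be so by chance. In each of the 5 it was the array numbered 1, and it was the highest. GART was at 7.94 on the treated array labelled CASP1, with the others at 7.33 to 7.42, and ATIC at 9.47 on the same array, with the others at 9.02 to 9.09. IMPDH2 was at 12.17 on the untreated array labelled CASP1, with the others at 12.02. CAD was at 8.56 on the untreated control array, with the others at 8.23 to 8.28, and at 7.81 on the untreated array labelled CASP1, with the others at 7.58 to 7.62. No interaction of a tested member passed in the fit of 4 group means over all arrays. Other fits of all arrays called 4 members with a batch term, 2 with a replicate block and 1 with other moderation.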

How the results depend on the processing

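Of 920 member differences recomputed under an alternative, 833 kept their direction and side of the threshold (for PRPS2 and CMPK2, moved by less than the spread between replicates), and of 276 counts 229 stayed within 1.5 times. Scalings moved the median of all genes by at most 0.04, but the split of calls over all genes moved more. For prednisolone in control cells 40.5% of calls were higher, and 46.6% after quantile normalization. After centring on the 75th percentile this share went from 41.7% to 50.4% between untreated lines and from 48% to 56.1% between treated lines. The shares called higher and lower given above therefore depend on the scaling. Leaving out the 4 arrays numbered 1 raised the count of all genes called to 3969 for prednisolone in control cells, 2161 in cells labelled CASP1, 3876 between untreated lines and 727 in the interaction. It raised the tested members called to 6 in cells labelled CASP1 and to 4 in the interaction, and the wider genes in the interaction to 6. A batch term for these arrays gave 4 members and 1793 genes for prednisolone in cells labelled CASP1, and 4 members, 1 wider gene and 392 genes in the interaction.

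The replicate block gave 2 members (CAD and PRPS1), 1 wider gene and 289 genes in the interaction, and added PRPS1 between untreated lines (adjusted p = 0.0087 from limma), with no other member call changed; 8 of the 16 arrays correlated best with their own number. Members called for prednisolone in cells labelled CASP1 were 4 with the mean of probe sets and 1 with only these groups, which called 688 genes. With prednisolone, members called between lines were 1 after quantile normalization, 1 after centring on the 75th percentile and 0 with only these groups. Trend and robust moderation gave 1 member in the interaction.

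Leaving out single arrays gave 1 to 5 members for prednisolone in cells labelled CASP1, 0 to 1 between treated lines, and 0 to 1 members, 0 to 2 wider genes and 96 to 268 genes in the interaction. Directions changed for values near 0: PRPS1 with prednisolone in cells labelled CASP1 (0.017 and 0.006 with the scalings, 0.012 with the mean of probe sets, 0.039 without the arrays numbered 1, -0.076 to 0.108 without single arrays), PAICS between treated lines (-0.104 with the mean of probe sets), CAD there (-0.087 to 0.163 without single arrays) and CTPS1 in the interaction (0.074 with the mean of probe sets, 0.266 without the arrays numbered 1, -0.174 to 0.207 without single arrays). The causes were not tested.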

Other observations

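The arrays numbered 1 differed from the mean of their group's other arrays in several members, in ways that varied by gene. PRPS1 was higher there by 0.56, 0.57, 0.46 and 0.28 in untreated control, treated control, untreated CASP1-labelled and treated CASP1-labelled cells, and CAD by 0.31, 0.39, 0.22 and 0.61. CMPK2 was higher by 0.84, 0.69 and 0.78 in the same first 3 groups and at -0.07 in the fourth. CTPS1 was at 0.17, 0.50, -0.10 and -0.99, and PRPS2 stayed between -0.12 and 0.15. The array numbered 1 was the highest of its group for 7, 7, 5 and 6 of the 10 members in these groups.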
